A study of Mus musculus with 6 samples.

Results

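The type I interferon response genes are the genes that cells switch on when interferon-alpha or interferon-beta binds its receptor. A list of 45 such genes was taken, matched by gene symbol, and all 45 were present among the 12579 genes of the deposited count table. RNA had been sequenced from cells of mouse fetal livers at E14.5 (embryonic day), in 3 Prl2+/+ and 3 Prl2-/- samples; no treatment or mouse strain is named in the labels, and the cells are described there as haematopoietic stem and progenitor cells. The Prl2-/- cells lack PRL2, a small tyrosine phosphatase encoded by Ptp4a2; the labels do not name the allele. By its title the study concerns PRL2 and the transcription that depends on FLT3, a receptor of early blood progenitors.

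Type I interferons act through a receptor of the IFNAR1 and IFNAR2 chains, whose kinases JAK1 and TYK2 phosphorylate STAT proteins, among them STAT2. STAT2 and IRF9 are subunits of the factor ISGF3, which binds the interferon-stimulated response element (ISRE), a DNA sequence in the promoters of its target genes. The products of the targets sense foreign RNA and DNA, stop viral translation, degrade RNA and block the assembly or release of virus, and some of them, such as IRF7, amplify the response. Blood stem and progenitor cells express many of these genes at a basal level without infection, and interferon is known to act on their division.

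Libraries held 25965111 to 33613949 counts in Prl2+/+ and 29525301 to 37026282 in Prl2-/-. Ptp4a2 held 8088 to 9906 counts in each Prl2+/+ library but 38 to 44 in each Prl2-/- library, so all 6 matched their genotype. All 15 stem and progenitor markers listed, among them Kit and Cd34, were in the table, with a summed level of 1143 to 1280 CPM (the counts-per-million scale) in Prl2+/+ and 1238 to 1409 CPM in Prl2-/-. Markers of other cells were present too. The 12 measured granulocyte precursor markers had the largest sum of any marker list. It was 23390 to 27850 CPM in Prl2+/+ and 24570 to 32230 CPM in Prl2-/-. The 23 hepatoblast markers summed to 195 to 5170 CPM in Prl2+/+ and 96.5 to 2927 CPM in Prl2-/-, and the 19 erythroid markers to 952 to 1752 CPM and 954 to 2236 CPM. In such bulk samples, fewer cells of a type and less RNA per cell cannot be told apart. Whether the libraries derive from different embryos is not stated in the labels, and the p-values then speak only of the spread among these 6 samples, which may be technical.

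The promoters of these genes were searched for the ISRE and are shown for a few of them. RefSeq promoter windows on GRCm38.p6 matched 35 of the 45 genes by symbol. The letters GAAANNGAAA, the core of the ISRE, were searched on both strands in the 250 bases before the start of each gene. They were found in 15 of the 35 genes, or 42.9%, against 3.24% of 9647 tested genes with a window. The letters TTCNNNGAA, the gamma-activated site, were found in 6 of the 35, or 17.1%, against 7.29%. A match of letters is a description and not a measured binding site. The following 5 windows, read 5′ to 3′ toward the start of the gene, were chosen after the values were seen to show copies of the element near the start, a single distant copy and no match, in genes described below. Capitals mark every base covered by GAAANNGAAA or its reverse complement TTTCNNTTTC.
Ifit1 (chr19:34640639-34640888, plus strand): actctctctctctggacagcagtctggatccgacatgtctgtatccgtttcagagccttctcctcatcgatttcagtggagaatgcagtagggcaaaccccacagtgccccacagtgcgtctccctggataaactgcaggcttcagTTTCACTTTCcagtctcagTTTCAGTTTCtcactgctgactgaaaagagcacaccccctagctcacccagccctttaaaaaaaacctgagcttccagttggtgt
Isg15 (chr4:156200819-156201068, minus strand): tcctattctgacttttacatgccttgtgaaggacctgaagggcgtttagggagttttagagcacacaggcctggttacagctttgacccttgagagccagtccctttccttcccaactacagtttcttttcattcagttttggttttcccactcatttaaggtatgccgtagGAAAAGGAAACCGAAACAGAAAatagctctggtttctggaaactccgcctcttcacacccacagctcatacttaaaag
Oas1a (chr5:120907526-120907775, minus strand): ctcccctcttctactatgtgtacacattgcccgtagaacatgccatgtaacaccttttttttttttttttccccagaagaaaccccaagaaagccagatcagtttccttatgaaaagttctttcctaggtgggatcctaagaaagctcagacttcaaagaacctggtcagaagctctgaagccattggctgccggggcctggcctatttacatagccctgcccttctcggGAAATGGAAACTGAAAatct
Stat2 (chr10:128270248-128270497, plus strand): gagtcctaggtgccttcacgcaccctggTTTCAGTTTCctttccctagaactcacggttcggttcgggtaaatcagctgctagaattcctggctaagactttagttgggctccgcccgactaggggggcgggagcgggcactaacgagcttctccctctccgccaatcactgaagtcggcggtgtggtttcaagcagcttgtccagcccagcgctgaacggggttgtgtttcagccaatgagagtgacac
Trim25 (chr11:88999153-88999402, plus strand): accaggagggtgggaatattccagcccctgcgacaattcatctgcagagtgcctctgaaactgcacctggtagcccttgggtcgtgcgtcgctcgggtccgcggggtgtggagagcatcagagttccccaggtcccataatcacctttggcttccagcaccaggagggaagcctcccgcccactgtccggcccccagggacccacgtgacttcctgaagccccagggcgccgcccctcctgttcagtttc
Ifit1 held 2 copies in these bases, Isg15 3 overlapping copies and Oas1a 2 overlapping copies, the nearest of which began 85, 66 and 14 bases before the start. Stat2 held 1 copy, 222 bases before the start, and Trim25 none. Genes with a match had a median log2 fold change of -0.85 and a median highest-over-lowest fold within Prl2-/- of 3.32, and the 20 without had -0.52 and 2.64, given as a description. In all, 9 of the 35 genes held 2 or more copies: Bst2, Gbp3, Ifit1, Ifit3, Ifit3b, Irgm1, Isg15, Oas1a and Oas1g.

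Across the 6 libraries the interferon response genes moved nearly as a block, and the block did not follow genotype alone. The 45 genes together held 3665, 2328 and 3176 CPM in Prl2+/+ replicates 1 to 3 and 3227, 1132 and 1419 CPM in Prl2-/- replicates 1 to 3. Prl2-/- replicates 2 and 3 therefore lay below every Prl2+/+ library, while Prl2-/- replicate 1 lay inside the Prl2+/+ range. Prl2-/- replicate 2 had the lowest value of 41 of the 45 genes and Prl2-/- replicate 3 of the other 4, Oasl2, Igtp, Rsad2 and Ifi35. Over all genes tested these libraries were lowest for 14.2% and 9.45%. Within Prl2-/-, the order of replicate 2, then 3, then 1 was kept by 41 of 45 genes, against 20.6% of all genes.

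**Figure D1:**
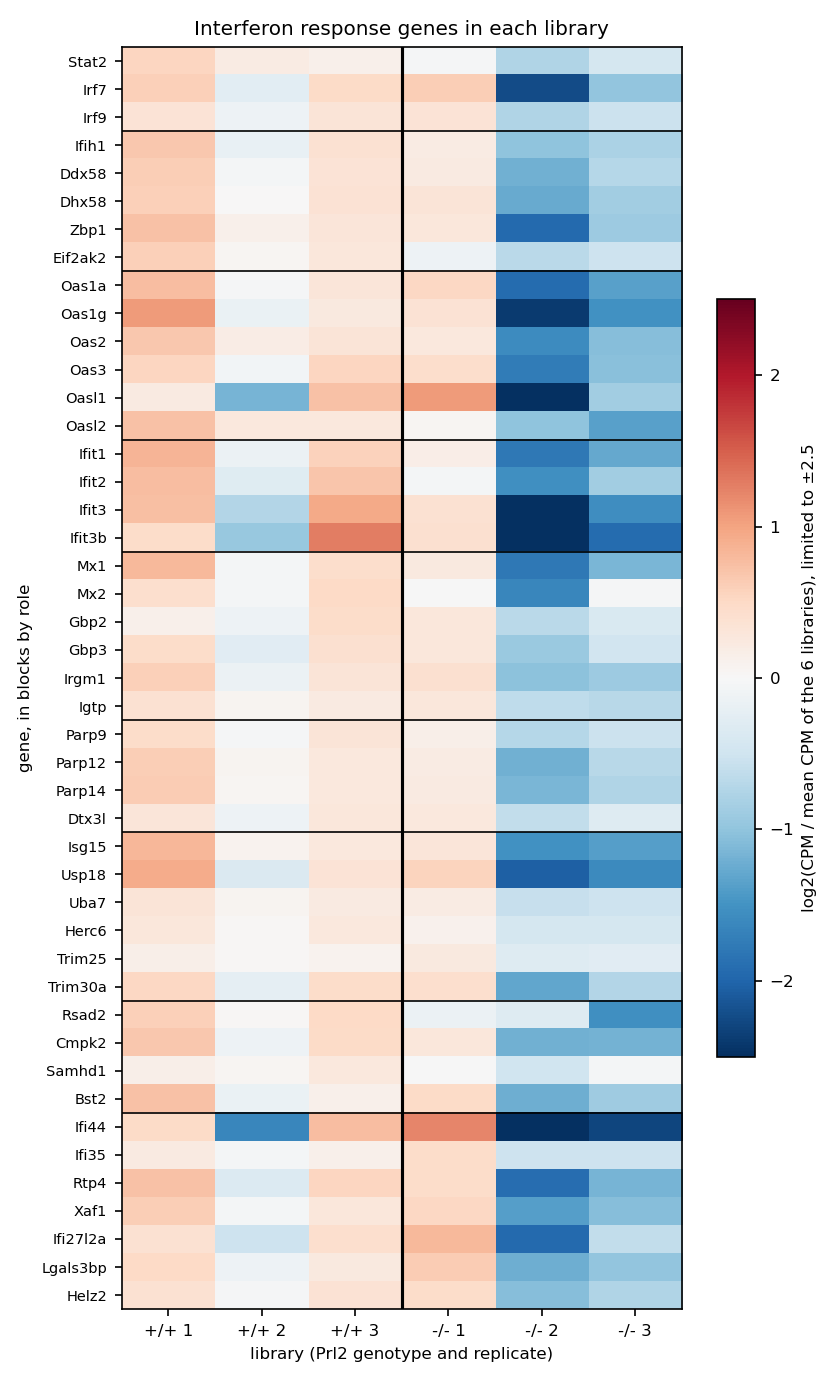
Each row is 1 of the 45 genes, in blocks by role, and each column a library; colour gives log2 of the CPM over the gene's mean CPM of the 6 libraries, limited to 2.5 on either side. The columns of Prl2-/- replicates 2 and 3 are blue for nearly all genes, whereas Prl2-/- replicate 1 resembles the Prl2+/+ columns.

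Compared between genotypes, the estimated log2 fold change (Prl2-/- minus Prl2+/+) was negative for all 45 genes. The median was -0.73 and the range ran from -1.39 for Ifit3b to -0.19 for Trim25. Over all 12576 genes tested, 50.2% of estimates were below 0 and the median was -0.001. No gene of the 45 passed the threshold of 0.05 in edgeR's quasi-likelihood test with Benjamini-Hochberg adjustment, where 0.0398% of all genes did and 0.0239% did so in the lower direction. The adjusted p was 0.899 for 41 of them and at most 0.962. DESeq2, limma-voom and the edgeR likelihood ratio test called 0 of the 45 as well, and the nearest was Eif2ak2 in DESeq2, with an adjusted p of 0.0553. An unadjusted edgeR p under 0.05 was reached by 8 genes, all lower in Prl2-/-, where 2.62% of all genes were lower at that p. These 8 were Stat2, Eif2ak2, Oasl2, Ifit2, Parp9, Herc6, Rsad2 and Samhd1. Since the 45 genes moved together over the libraries, they are not 45 separate observations of the genotype.

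Single libraries weighed heavily on these counts. Without Prl2-/- replicate 1, 43 of the 45 genes had an unadjusted p under 0.05, as did 4.2% of all genes, and the median log2 fold change was -1.28, yet 0 passed after adjustment. Without Prl2-/- replicate 2 the median was -0.48 and 3 genes had such a p, against 4.72% of all genes. The number was 2 without Prl2+/+ replicate 1, 3 without Prl2+/+ replicate 3 and 4 without Prl2-/- replicate 3, where 2.22%, 4.36% and 5.34% of all genes had such a p.

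**Figure D2:**
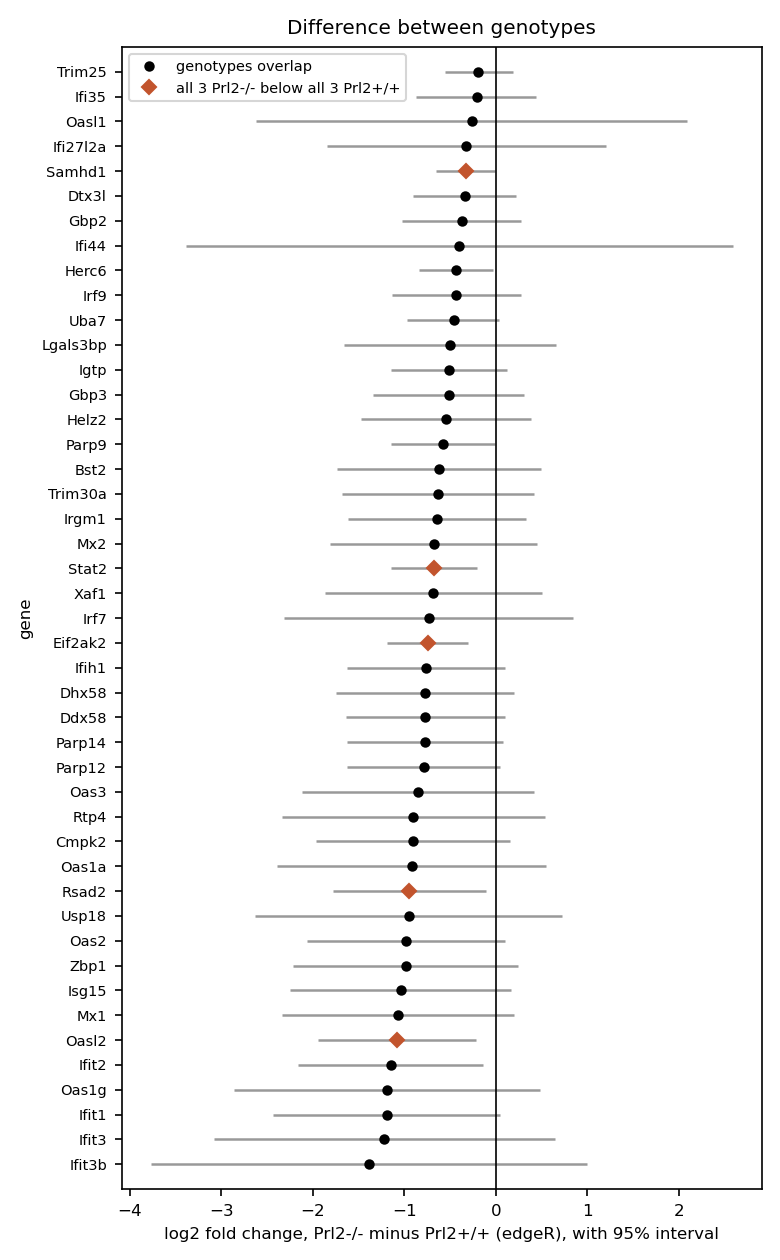
Points give the edgeR log2 fold change of each gene, Prl2-/- minus Prl2+/+, and lines its 95% interval. Diamonds mark the 5 genes whose Prl2-/- libraries all lay below all Prl2+/+ libraries; every point lies below 0 and 37 of the 45 intervals reach 0 or beyond.

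The spread within Prl2-/- was larger than the difference between genotypes, and that within Prl2+/+ was smaller by the medians over the 45 genes. Between the highest and the lowest library the median fold over the 45 genes was 2.86 within Prl2-/- and 1.54 within Prl2+/+, against 1.2 and 1.18 over all genes. The mean of Prl2+/+ was a median of 1.66-fold the mean of Prl2-/-, against 1 over all genes. By these folds 44 of the 45 genes differed more between Prl2-/- libraries than between genotype means, Eif2ak2 being the exception. A highest-over-lowest fold cannot fall below 1, whereas the ratio of means can, so the count favours that outcome for any gene. Its share over all genes was not counted. The median biological coefficient of variation, the relative spread between replicates that edgeR fits, was 0.364 for these genes and 0.143 for all genes.

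Genes that varied most in Prl2+/+ also varied most in Prl2-/-. Prl2+/+ replicate 2 was lower than Prl2+/+ replicate 1 for all 45 genes and lower than Prl2+/+ replicate 3 for 44, the exception being Stat2. The fold of the highest over the lowest library ran from 1.09 for Trim25 to 4.68 for Ifit3b within Prl2+/+, and from 1.40 for Samhd1 to 24.4 for Oasl1 within Prl2-/-. These ranges leave out Ifi44, which had only 2 counts in its lowest library. Across the other 44 genes the log2 folds within the 2 genotypes had a Pearson r of 0.88 and a Spearman rho of 0.79. This is a relation across genes, which share libraries and are not independent replicates.

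**Figure D3:**
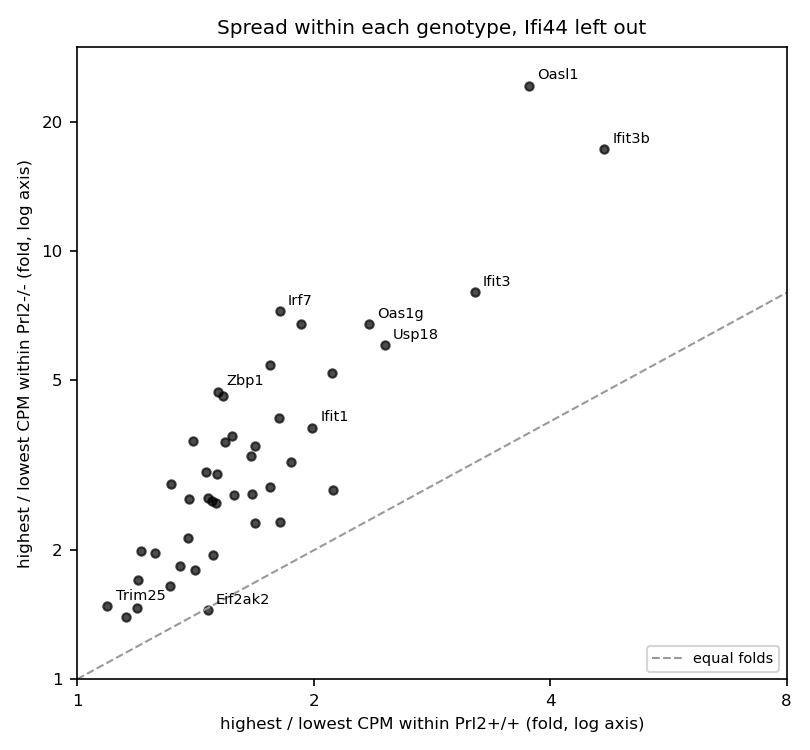
Each point is a gene; the horizontal axis gives the highest over the lowest CPM within Prl2+/+ and the vertical axis the same within Prl2-/-, both on log axes, with Ifi44 left out. Oasl1 and Ifit3b lie at the far end in both genotypes and Trim25 at the near end, and all points but Eif2ak2 lie above the line of equal folds.

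Among the factors that carry the signal, Stat2, a subunit of ISGF3, had genotypes that did not overlap. It stood at 44.9, 36 and 34.2 CPM in Prl2+/+ replicates 1 to 3 and 30.4, 18.4 and 23.0 CPM in Prl2-/- replicates 1 to 3. Every Prl2-/- library was below every Prl2+/+ library, and the log2 fold change was -0.68 ± 0.197 (SE), with an adjusted p of 0.899 in edgeR. Irf9, the DNA-binding subunit of ISGF3, had 74.8, 54.0 and 73.7 CPM in Prl2+/+ and 74.3, 34.8 and 40.6 CPM in Prl2-/-. Here Prl2-/- replicate 1 matched the highest Prl2+/+ libraries (-0.43 ± 0.293, SE; edgeR adjusted p = 0.899). Irf7, the interferon-induced factor that drives further interferon genes, ranged most of these factors, at 225, 125 and 207 CPM in Prl2+/+ and 229, 31.6 and 74.6 CPM in Prl2-/-. Prl2-/- replicate 1 held the highest level of the 6 libraries and Prl2-/- replicate 2 the lowest, a 7.24-fold range within the genotype (-0.73 ± 0.660, SE; edgeR adjusted p = 0.899).

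Genes whose products sense foreign nucleic acid had estimates of -0.98 to -0.74. Eif2ak2 encodes PKR, the kinase that stops translation when it meets double-stranded RNA. It had 47.8, 32.7 and 38.9 CPM in Prl2+/+ and 29.0, 20.02 and 22.3 CPM in Prl2-/-, the smallest unadjusted p of the 45 genes. All Prl2-/- libraries were below all Prl2+/+ libraries, by -0.74 ± 0.186 on the log2 scale (SE), with an edgeR p of 0.00571 before and 0.899 after Benjamini-Hochberg adjustment. Dhx58 encodes LGP2, a regulator of the RNA sensors, and had 62.8, 41.7 and 53.2 CPM in Prl2+/+ and 52.3, 17.4 and 22.7 CPM in Prl2-/-. Its replicate 1 of Prl2-/- lay within the Prl2+/+ range. The same held for Ddx58, the gene of the sensor RIG-I, for Ifih1, the gene of MDA5, and for Zbp1, a sensor of left-handed nucleic acid. Their means were 99.5 ± 22.4, 30.1 ± 8.59 and 36 ± 7.93 CPM in Prl2+/+ and 58.2 ± 30.4, 17.7 ± 8.60 and 18.2 ± 13.4 CPM in Prl2-/- (SD, n = 3 each).

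The oligoadenylate synthetases make the messenger that activates RNase L, which cuts RNA. Oas1a, the member with the highest level per kilobase of transcript, had 134, 76.3 and 97.2 CPM in Prl2+/+ and 111, 20.5 and 30.4 CPM in Prl2-/-. Prl2-/- replicate 1 lay within the Prl2+/+ range and the other Prl2-/- libraries far under it (-0.92 ± 0.616, SE; edgeR adjusted p = 0.899). In Oas1g, Oas2 and Oas3 too, Prl2-/- replicate 1 lay within the Prl2+/+ range and replicates 2 and 3 below it, with means of 26.9 ± 12.1, 47.7 ± 8.53 and 94.0 ± 21.2 CPM in Prl2+/+ and 11.8 ± 11.5, 24.2 ± 16.7 and 52.1 ± 41.3 CPM in Prl2-/- (SD, n = 3 each). Oas1a and Oas1g are close copies, with 57.6% of the 50-base stretches of Oas1a transcripts found in Oas1g, so the split of reads between them is uncertain.

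The OAS-like genes Oasl1 and Oasl2 lie next to each other on chromosome 5 (GRCm38 114923240 to 114937911 and 114896934 to 114912245, both on the plus strand) and behaved differently. Oasl2 had 126, 90.7 and 91.4 CPM in Prl2+/+ and 78.2, 37.8 and 29.6 CPM in Prl2-/-, so that the genotypes did not overlap (-1.08 ± 0.361, SE; edgeR adjusted p = 0.899). Oasl1, in the mouse a repressor of Irf7 translation, had 38.4, 14.6 and 54.9 CPM in Prl2+/+ and 68.8, 2.82 and 18.1 CPM in Prl2-/-. Prl2-/- replicate 1 was the highest of the 6 libraries and Prl2-/- replicate 2 the lowest, and the log2 fold change was -0.26 ± 0.987 (SE; edgeR adjusted p = 0.962). The sign of this estimate turned without Prl2+/+ replicate 3 or without Prl2-/- replicate 2, to 0.18 and 0.27.

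The IFIT genes had the lowest median log2 fold change of any role group, at -1.20. The product of Ifit1 binds viral RNA that lacks the host's cap methylation. Ifit1 had 56.4, 28.4 and 46.7 CPM in Prl2+/+ and 35.4, 9.14 and 12.9 CPM in Prl2-/-. Ifit2 had 55.2, 26.1 and 52.4 CPM and 31.1, 11.2 and 17.8 CPM. In both genes Prl2-/- replicate 1 lay above Prl2+/+ replicate 2, so the genotypes overlapped. The log2 fold change was -1.19 ± 0.521 for Ifit1 and -1.15 ± 0.424 for Ifit2 (SE; edgeR adjusted p = 0.899 for both). Counts of Ifit3 were 993, 448 and 1116 in Prl2+/+ and 1042, 108 and 282 in Prl2-/-. Those of Ifit3b were 289, 138 and 502, and 374, 18 and 77. They are close copies on chromosome 19 (34583529 to 34588982 and 34607957 to 34613401), with 51.2% of the 50-base stretches of Ifit3 transcripts found in Ifit3b, which limits how surely reads can be split between them.

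Interferon-inducible GTPases bind viral capsids or the membranes of compartments that hold microbes. Irgm1, a regulator of this family and of autophagy, had 209, 125 and 175 CPM in Prl2+/+ and 184, 67.9 and 74.0 CPM in Prl2-/-. Mx1, which blocks influenza virus, was scarce, with 186, 130 and 141 counts in Prl2+/+ and 171, 35 and 68 in Prl2-/-, or 7.06, 3.90 and 5.45 CPM and 4.78, 1.18 and 1.84 CPM. In both genes replicate 1 of Prl2-/- lay inside the Prl2+/+ range and replicates 2 and 3 below it (-0.64 ± 0.406 and -1.07 ± 0.532, SE; edgeR adjusted p = 0.899 for both). Mx2 had 30 to 34 counts in Prl2+/+ and 9 to 34 in Prl2-/-, the lowest level per kilobase of the 45. Gbp2, Gbp3 and Igtp had smaller estimates, of -0.37 ± 0.274, -0.51 ± 0.345 and -0.51 ± 0.266 (SE; edgeR adjusted p = 0.899 for each).

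Among the genes of ADP-ribosylation, Parp9 and Dtx3l encode partners in 1 complex and start head to head on chromosome 16, with 334 bases of exon in common on opposite strands. The library method does not mark strand, so reads from the shared bases cannot be assigned. Parp9 had 69.2, 49.0 and 62.5 CPM in Prl2+/+ and 55.4, 30.8 and 34.8 CPM in Prl2-/- (-0.58 ± 0.238, SE; edgeR adjusted p = 0.899), and Dtx3l had means of 62.2 ± 9.96 and 49.1 ± 15.8 CPM (SD, n = 3 each). Parp12, the member of the group with the highest level per kilobase, had 111, 75.7 and 86.8 CPM in Prl2+/+ and 82.8, 31.3 and 44.4 CPM in Prl2-/- (-0.78 ± 0.349, SE; edgeR adjusted p = 0.899). Parp14, a large enzyme of the same family, had an estimate of -0.77 ± 0.356. For all 4 genes Prl2-/- replicate 1 lay within the Prl2+/+ range and replicates 2 and 3 below it.

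ISG15 is a ubiquitin-like protein that is joined to other proteins by the enzymes of UBA7 and HERC6 and removed by USP18, which also shuts off the interferon receptor. Isg15 had 64.0, 38.0 and 43.1 CPM in Prl2+/+ and 44.1, 12.6 and 13.8 CPM in Prl2-/- (-1.04 ± 0.505, SE; edgeR adjusted p = 0.899). Usp18 had 168, 68.1 and 111 CPM and 128, 21.3 and 29.1 CPM (-0.95 ± 0.703). Uba7 and Herc6 varied less. Herc6 had 26, 21.9 and 25.6 CPM in Prl2+/+ and 22.9, 15.7 and 15.8 CPM in Prl2-/- (-0.43 ± 0.171, SE; edgeR adjusted p = 0.899), and Uba7 an estimate of -0.46 ± 0.212. Trim25, the ubiquitin ligase that activates RIG-I, had 102, 93.3 and 98.3 CPM in Prl2+/+ and 109, 73.6 and 75.4 CPM in Prl2-/-, the smallest estimate of the 45. Trim30a, an interferon-induced ligase, had means of 82.6 ± 21.3 and 53.2 ± 33.6 CPM (SD, n = 3 each).

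The genes that restrict viral replication and release included both Samhd1 and Rsad2 among those with no overlap of genotypes. Samhd1, which removes the nucleotides that viruses need, had 140.2, 131 and 151 CPM in Prl2+/+ and 125, 89.2 and 122 CPM in Prl2-/- (-0.33 ± 0.135, SE; edgeR adjusted p = 0.899). Rsad2, the gene of viperin, had 54.5, 36.7 and 50.5 CPM in Prl2+/+ and 32.3, 28.8 and 12.4 CPM in Prl2-/- (-0.95 ± 0.349, SE; edgeR adjusted p = 0.899). Its lowest library was Prl2-/- replicate 3, at 0.431 times the level of Prl2-/- replicate 2, unlike the block as a whole. Cmpk2, a nucleotide kinase gene that lies beside Rsad2 on chromosome 12 and points away from it, had 201, 114 and 175 CPM in Prl2+/+ and 152, 54.1 and 55.1 CPM in Prl2-/-. The neighbours thus differed in the order of Prl2-/- replicates 2 and 3. Bst2, the gene of tetherin, had the highest level per kilobase of all 45 genes, with 143, 76.6 and 94.4 CPM in Prl2+/+ and 120.4, 37.4 and 47.0 CPM in Prl2-/- (-0.62 ± 0.465, SE; edgeR adjusted p = 0.899).

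In the remaining genes the estimate was smaller where Prl2-/- replicate 1 stood high. Lgals3bp, a secreted glycoprotein gene, had 307, 199 and 255 CPM in Prl2+/+ and 335, 93.5 and 109.7 CPM in Prl2-/-. Its highest and lowest libraries were both Prl2-/- (-0.50 ± 0.487, SE; edgeR adjusted p = 0.899). Rtp4, a chaperone gene, had 128, 60.6 and 112 CPM and 106, 20.4 and 34.5 CPM, with Prl2-/- replicate 1 inside the Prl2+/+ range (-0.90 ± 0.604, SE; edgeR adjusted p = 0.899). Ifi44 was scarce, at 58, 17 and 70 counts in Prl2+/+ and 132, 2 and 12 in Prl2-/-, and its estimate of -0.40 ± 1.252 turned to 0.02, 0.16 and 0.07 without Prl2+/+ replicate 3, Prl2-/- replicate 2 or Prl2-/- replicate 3. Ifi27l2a, a mitochondrial protein gene, ran from 14.7 to 99.0 CPM within Prl2-/- and its estimate of -0.32 ± 0.637 turned to 0.12 without Prl2-/- replicate 2. It shares 103 bases of exon with Ifi27 on the opposite strand, and reads from these bases cannot be assigned. Ifi35, Xaf1 and Helz2 had estimates of -0.21 ± 0.275, -0.69 ± 0.495 and -0.54 ± 0.388.

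**Figure D4:**
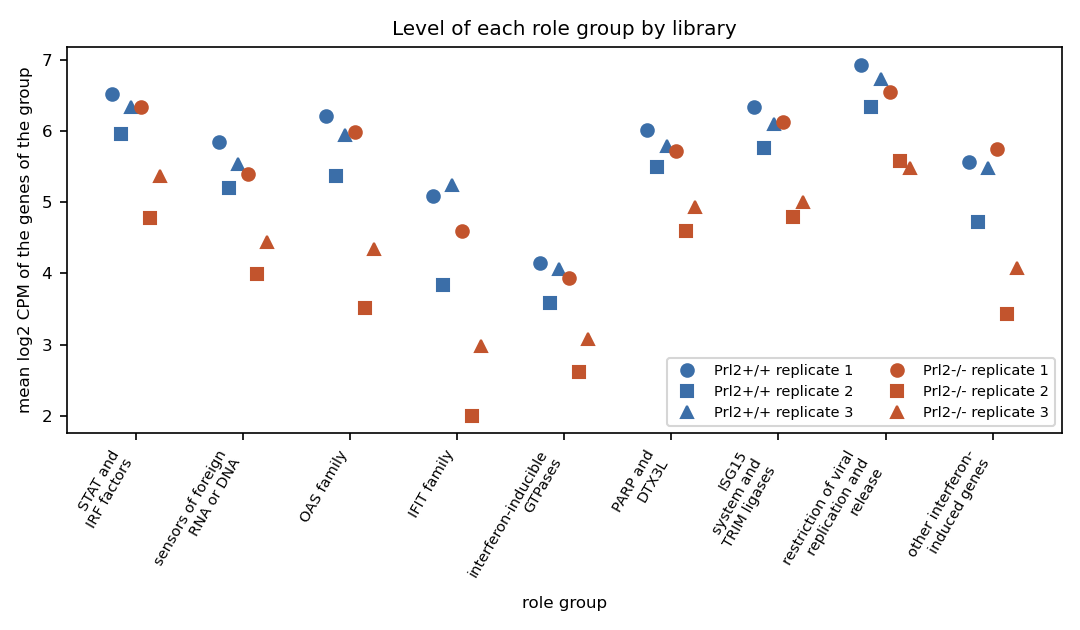
Each symbol gives the mean log2 CPM of a role group in a library, blue for Prl2+/+ and orange for Prl2-/-, with the replicate shown by shape. In each of the 9 groups Prl2-/- replicates 2 and 3 are the lowest libraries and Prl2-/- replicate 1 lies among or above the Prl2+/+ libraries.

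Thus 5 of the 45 genes had genotypes that did not overlap, all lower in Prl2-/-: Stat2, Eif2ak2, Oasl2, Rsad2 and Samhd1. Over all genes 5.07% were lower without overlap. In Prl2-/- replicate 1 these 5 genes were below the Prl2+/+ range, 32 were within it and 8 above it, namely Irf7, Oasl1, Trim25, Ifi44, Ifi35, Ifi27l2a, Lgals3bp and Helz2. Over all genes that library was below the range for 31.4% and above it for 31.1%. Prl2-/- replicate 2 was below the Prl2+/+ range for all 45 genes, against 23.8% of all genes. Prl2-/- replicate 3 was below it for 43, Oasl1 and Mx2 being the exceptions, against 20%.

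Levels per kilobase of transcript, averaged over the 6 libraries, ordered the genes from Bst2 at 113 CPM per kilobase through Lgals3bp at 99.9 and Irf7 at 80.0 to Mx1 at 1.36, Ifi44 at 0.545 and Mx2 at 0.386.

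Of 21 interferon genes listed, none was among the genes analysed here. All 9 genes of interferon receptors and their kinases were measured and 0 passed the edgeR threshold. An unadjusted p under 0.05 was reached by 0, against 4.6% of all genes, and their median log2 fold change was -0.06. Only 1 of the 9, Jak2, was lower in Prl2-/- without overlap of genotypes, where 5.07% of all genes were. Ifnar1 had 106, 123 and 109 CPM in Prl2+/+ and 101, 99.4 and 109 CPM in Prl2-/-, and Jak2, a kinase of the interferon-gamma receptor, 127, 118 and 119.7 CPM and 87.9, 112 and 115 CPM (-0.13 ± 0.078 and -0.21 ± 0.109, SE; edgeR adjusted p = 0.899 for both). The receptor list as a whole summed to 1193 to 1234 CPM in Prl2+/+ and 1069 to 1262 CPM in Prl2-/-, with no shortfall in Prl2-/- replicate 2 of the size seen in the 45 genes.

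Of 15 genes that relay sensing to the interferon genes, 0 passed the edgeR threshold and the median log2 fold change was -0.04. An unadjusted p under 0.05 was reached by 2, against 4.6% of all genes. Mb21d1, the gene of the DNA sensor cGAS, had 28.6, 22.3 and 29.2 CPM in Prl2+/+ and 21.2, 16.0 and 19.7 CPM in Prl2-/- (-0.49 ± 0.151, SE; edgeR adjusted p = 0.899). Ifi204, a DNA sensor of the p200 family, had 62.9, 35.9 and 54.4 CPM and 35.5, 15.4 and 27.2 CPM (-0.97 ± 0.329, SE; edgeR adjusted p = 0.899). Both are themselves induced by interferon. In all, 4 of the 15 genes were lower in Prl2-/- without overlap of genotypes, where 5.07% of all genes were. These were Mb21d1, Ifi204, Tlr3 and Tlr7. The adaptors Mavs and Myd88 and the factor Irf3 had estimates of 0.15 ± 0.092, -0.04 ± 0.075 and 0.12 ± 0.075.

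Of 12 other STAT and IRF genes and 13 negative regulators, 0 passed edgeR's threshold and the medians were -0.04 and -0.01. The unadjusted p was under 0.05 for 0 and 1 of them, against 4.6% of all genes. Stat5a had the smallest p of its list, at 0.16 ± 0.067 (SE; edgeR adjusted p = 0.899). Among negative regulators the smallest p values belonged to Rnaseh2a, a subunit of RNase H2, at 0.16 ± 0.066, and Trex1, a DNase that limits self DNA, at -0.37 ± 0.217. Socs1, which inhibits JAK kinases, had an estimate of 0.08 ± 0.106 (SE; edgeR adjusted p = 0.899 for Rnaseh2a and Trex1 and 0.908 for Socs1).

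A further list of 73 interferon-stimulated genes outside the 45 was likewise lowest in Prl2-/- replicates 2 and 3. Estimates were negative for 62 of the 69 measured, against 50.2% of all genes, and the median log2 fold change was -0.36. By edgeR, 0 passed after adjustment and 6 had an unadjusted p under 0.05, as did 4.6% of all genes. On average they lay at a log2 CPM of 5.25, 4.74 and 5.14 for Prl2+/+ and 5.15, 4.05 and 4.36 for Prl2-/-, beside 5.77, 5.06 and 5.62 and 5.55, 3.83 and 4.33 for the 45 genes. The smallest p values were those of Tdrd7, a Tudor domain protein gene, at -0.56 ± 0.155, and Slfn5, a Schlafen family gene, at -1.09 ± 0.330 (SE; edgeR adjusted p = 0.899 for both). DESeq2, limma-voom and the likelihood ratio test also called 0 genes of this list and of each upstream list.

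Markers of erythroid cells ran opposite to the interferon response genes in several libraries. Averaged over the list, log2 CPM stood at 5.17, 5.76 and 4.28 for Prl2+/+ and 4.37, 6.11 and 4.95 for Prl2-/-, highest in the libraries where the interferon genes were lowest within each genotype. All 19 measured markers, of 21 listed, were above 0 in the 6 libraries, and 8 of the 19 had an estimate below 0. With the erythroid level as a covariate the median of the 45 genes was -0.84, 36 had an unadjusted p under 0.05 where 6.46% of all genes did, and 0 passed after adjustment, with a smallest edgeR adjusted p of 0.489. All 23 hepatoblast markers had negative estimates, where 50.2% of all genes did, with a median of -1.12, and 0 passed. These markers summed to 5170, 1028 and 195 CPM in Prl2+/+ replicates 1 to 3 and 96.5, 2927 and 381 CPM in Prl2-/-. They were highest in Prl2+/+ replicate 1 and next in Prl2-/- replicate 2, so their sums did not separate by genotype. With their level as a covariate the median was -1.01, with 33 such genes where 4.99% of all genes had such a p, and again 0 passed. These covariates come from the same 6 libraries and are not a measure of cell numbers. The part of other cells in the result was not tested.

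Plasmacytoid dendritic cells are known for making type I interferon. Apart from Bst2, 8 of 11 of their listed markers were measured and summed to 105 to 180 CPM in Prl2+/+ and 120.5 to 240 CPM in Prl2-/-. Siglech, a defining marker, was near 0 in every library, at 0.417 to 1.66 CPM in Prl2+/+ and 0.772 to 1.37 CPM in Prl2-/-. All 8 had an estimate above 0. The 11 B cell markers summed to 110 to 336 CPM in Prl2+/+ and to 422, 72.7 and 194 CPM in Prl2-/- replicates 1 to 3, and the 7 measured endothelial markers, of 11 listed, to 107 to 112 CPM and to 118, 96.6 and 106 CPM. Both lists, like the interferon response genes, were highest in replicate 1 and lowest in replicate 2 within Prl2-/-. The same order held for the plasmacytoid dendritic cell list, at 240, 120.5 and 144 CPM in Prl2-/- replicates 1 to 3. It also held for the summed stem and progenitor markers, at 1409, 1238 and 1289 CPM. By mean log2 CPM it did not, at 5.06, 4.76 and 4.72, lowest in replicate 3. The stem and progenitor list includes Ly6a, which is also on the further interferon-stimulated list, at 185.3, 62.1 and 83.7 CPM. Within Prl2+/+ the sums of the plasmacytoid dendritic cell, stem and progenitor, and B cell lists were lowest in replicate 1. They stood there at 105, 1143 and 110 CPM, unlike the interferon response genes, which were highest in that library by their sum. The part of these lists in the result was not tested. The 17 measured macrophage and monocyte markers, of 19 listed, summed to 4138 to 5100 CPM and 3459 to 5949 CPM, with a median log2 fold change of 0.01. Most of this sum was Lyz2 in every library, at 3021 to 3962 CPM in Prl2+/+ and 2344 to 4852 CPM in Prl2-/-.

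**Figure D5:**
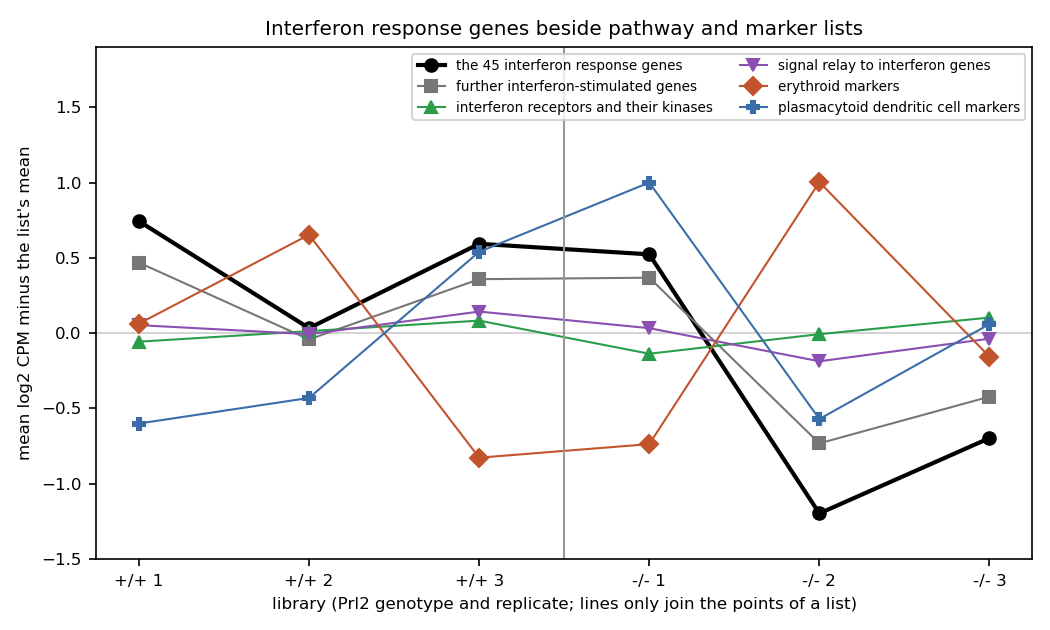
Points give the mean log2 CPM of each list in a library minus the list's mean over the 6 libraries; lines only join the points of a list. The 45 interferon response genes and the further interferon-stimulated genes take a similar course and are lowest in Prl2-/- replicate 2, where erythroid markers are highest, while the receptor list moves little.

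Genes outside the lists with the most similar course over the 6 libraries were sought by Pearson's r with the mean centred log2 CPM of the 45. The 10 protein-coding genes with the highest r were B2m, Rnf34, Usp54, Lrp8, Ubr1, Fbxw17, H2-T24, Jmjd6, Cdk20 and Ms4a6b, with r from 0.980 to 0.997. B2m, the light chain of MHC class I, had 645, 499 and 610.2 CPM in Prl2+/+ and 586, 350.4 and 419 CPM in Prl2-/-, a course in the same order as the 45 genes but narrower. H2-T24, a class I gene, had 25.6, 15.7 and 26.8 CPM and 22.4, 8.87 and 12.8 CPM. Some of these genes barely moved: Lrp8, a lipoprotein receptor gene, stayed between 67.6 and 75.4 CPM. Among the 100 genes with the highest r of all those tested, 33 were members and 27 were of the further list. The members themselves made up the profile, and each had an r of 0.687 for Rsad2 to 0.998 for Rtp4 with the mean of the other 44. These values describe 6 libraries and were selected as the highest over the table.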

How the data were processed

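The 6 libraries were made from 1 ng of total RNA with a template-switching cDNA kit and transposon tagmentation, which marks no strand, per the labels' protocols. Reads were aligned with STAR and counted with featureCounts, per the submitters' processing notes; the sources used here do not give versions, genome build or the treatment of reads with several positions. The deposited table holds raw counts of 12579 genes, per the file headers; each gene in it had at least 0.2 CPM in at least 3 libraries. Of 12135 symbols shared with GENCODE M21 (GRCm38), 12126 overlapped its positions, among them all 45 members. Gene lengths are other values from the deposited table.

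Counts were filtered with filterByExpr (12576 genes left), scaled by TMM (factors 0.991 to 1.008) and tested with the edgeR 4.0.16 quasi-likelihood F test in R 4.3.3, Prl2-/- against Prl2+/+, with p-values adjusted over all genes tested (threshold 0.05). CPM use TMM-scaled totals; log2 CPM use a prior count of 2. SE is the fold change over the square root of F; 95% intervals use the t distribution. The workflow was checked on simulated counts. No pair of libraries agreed within sampling noise (chi-square per gene at least 19.6). Alternatives included DESeq2 1.42.0, limma-voom 3.58.1 and each library left out. Transcripts of GENCODE M21 gave the 50-base stretches shared between genes.

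Named genes are all members, with every library's value for the STAT and IRF genes and, in each role group, for the smallest p and the highest level per kilobase; the smallest p of each pathway list; and the 10 non-member genes with the highest r (mean log2 CPM at least 2). Others were named after their values were seen. The members, lists and rules were chosen with earlier results of these data known. Among the pathway-list genes, 1 is left unnamed and its own values are not reported here.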

Additional observations from a re-analysis of the deposited data

How the results depend on the processing

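Over 17 alternatives, 0 of the 45 interferon response genes passed in each. The median log2 fold change stayed below 0 in all of them, at -1.01 to -0.73 in the 11 that keep every library and -1.28 to -0.48 without 1 library. Estimates below 0 numbered 44 of 44 tested with a mean CPM of at least 1 (Mx2 was left out), 45 in the other 10, and 42 to 45 without 1 library. Signs turned for Oasl1 (0.18 without Prl2+/+ replicate 3, 0.27 without Prl2-/- replicate 2), Ifi44 (0.02, 0.16 and 0.07 without Prl2+/+ replicate 3, Prl2-/- replicate 2 and Prl2-/- replicate 3) and Ifi27l2a (0.12 without Prl2-/- replicate 2). Without 1 library Oasl1 ran from -1.77 to 0.27 and Ifi44 from -3.13 to 0.16, both lowest without Prl2-/- replicate 1.

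Members with an unadjusted p under 0.05, 8 in the edgeR quasi-likelihood test, numbered 13 with DESeq2 (4.54% of all genes had such a p), 18 with limma-voom (4.61%), 16 with the likelihood ratio test (2.06%), 4 with robust estimation (4.52%), 36 and 33 with erythroid and hepatoblast covariates (6.46% and 4.99%), and 2 to 43 without 1 library (2.22% to 5.34%). Called genes over the whole table, 5 with 3 lower, numbered 36 (24 lower) with DESeq2, 21 (12 lower) with the likelihood ratio test and 3 to 4 without 1 library (3 lower each time). With the replicate number as a block, 38 members had an unadjusted p under 0.05 (3.51% of all genes), 0 passed, and 1 gene was called (1 lower). Same-numbered libraries deviated with r of -0.638, 0.209 and 0.174, and differently numbered ones with r of -0.813 to 0.745. With 3 libraries per genotype, these values cannot decide whether the numbers pair the samples. The causes were not tested. Depth limits the scarce genes Mx2, Ifi44 and Mx1.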
